A study of Homo sapiens with 9 samples.

Results

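Voltage-gated and potassium channel genes were followed in H9, a widely used line of human embryonic stem cells (hESC), before and during differentiation towards midbrain dopaminergic neurons. The set holds every protein-coding gene of the count table whose symbol has the form of a potassium channel gene (KCN, letters and a number), a sodium channel alpha or beta subunit (SCN) or a voltage-gated calcium channel subunit (CACNA1, CACNA2D and CACNB). It came to 127 genes, 95 of potassium, 14 of sodium and 18 of calcium channels, among 46427 genes in the table, of which 19672 were protein-coding. The rule uses the gene's name and no measured value, although it was set with earlier results of these data known, and the genes fall into 15 families.

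Messenger RNA was sequenced in 9 libraries, 3 in each of 3 groups. The first group, called BafA1 NPC here, was neural progenitor cells (NPC) at day 11 that had received bafilomycin A1 (BafA1), which inhibits the vacuolar proton pump and so keeps lysosomes from acidifying and from clearing autophagosomes. The second was control NPC at day 11 without it, and the third was undifferentiated hESC. Both groups of NPC had passed through the same differentiation, in which BMP receptors were blocked by LDN193189 (200 nM) and activin and TGF-beta receptors by SB431542 (10 µM). Hedgehog signalling was activated by purmorphamine (2 µM) and WNT signalling by CHIR99021 (3 µM). BafA1 was used at 10 nM in exposures of 6 h, and no source used here gives the days on which the sequenced cells received it. No allele, transgene or deletion is named for any group, and all 3 come from 1 cell line. The libraries of a group are labelled biological replicates. No source used here says whether they were separate cultures, so that p-values measure the spread between these libraries only.

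An electrical signal in a neuron is started by voltage-gated sodium channels, whose alpha subunit forms the pore and whose beta subunits tune its gating and anchor it. It is ended by voltage-gated potassium (Kv) channels, while inward rectifier and two-pore-domain potassium channels set the resting potential, and calcium-activated potassium channels slow firing. Voltage-gated calcium channels couple the signal to transmitter release, gene expression and pacemaking, the last of which is a known property of midbrain dopamine neurons. Early progenitors fire little or not at all, and in them potassium channels are known mostly for their part in membrane potential, cell volume and division.

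Library totals were 43124679 to 69703791 counts in BafA1 NPC, 49479733 to 56054194 in control NPC and 55706968 to 66544642 in hESC. Levels within a gene are given as CPM, counts scaled to library size with the trimmed mean of M-values (TMM), in which 3 counts in a library correspond to 0.0461 to 0.0731 CPM. Markers separated hESC from NPC. The 6 pluripotency markers summed to 810 to 887 CPM in BafA1 NPC, 580 to 639 CPM in control NPC and 4540 to 4820 CPM in hESC. LIN28A gave most of the sum in NPC, and POU5F1, TDGF1 and PRDM14 were at 0 in control NPC. The 6 neural progenitor markers summed to 932 to 1150 CPM in BafA1 NPC, 914 to 969 CPM in control NPC and 467 to 512 CPM in hESC, where PAX6 and HES5 were at 0. The 12 neuron markers summed to 715 to 772 CPM in BafA1 NPC, 687 to 742 CPM in control NPC and 274 to 299 CPM in hESC. Of the 12, 10 were higher and 1 was lower in control NPC than in hESC. The lower one was RBFOX3, with means of 0.327 CPM in control NPC and 22.3 CPM in hESC. Dopamine neuron markers were low. They summed to 19.3 to 42.4 CPM in BafA1 NPC, 18.8 to 43.5 CPM in control NPC and 8.65 to 9.53 CPM in hESC. DDC gave most of that sum in NPC, with means of 28.1 CPM in BafA1 NPC and 29.3 CPM in control NPC. Of these 6 markers, 1 was higher and 3 were lower in control NPC than in hESC. Only TH was higher in BafA1 NPC than in control NPC, and none was lower. The means of TH were 0.632 CPM in BafA1 NPC and 0.0225 CPM in control NPC, the latter below the level of 3 counts. Mesenchyme markers were abundant in NPC, at 1990 to 2210 CPM in BafA1 NPC, 1040 to 1760 CPM in control NPC and 81.2 to 86.1 CPM in hESC. Of these 5 mesenchyme markers, 2 were higher and 2 lower in BafA1 NPC than in control NPC. In such mixed bulk samples, fewer cells of a type and less RNA per cell cannot be told apart. The part of these markers in the channel results was not tested.

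Few channel genes were abundant. Levels between genes are compared in FPKM, fragments scaled by transcript length and library size. At least 1 FPKM was reached by 24 of the 127 channel genes in BafA1 NPC, 28 in control NPC and 41 in hESC. The median of the 127 genes was 0.215 FPKM in BafA1 NPC, 0.222 in control NPC and 0.272 in hESC. The medians of all genes tested, which had passed a filter on counts, were 2.87, 3.17 and 2.91 FPKM in BafA1 NPC, control NPC and hESC. KCNQ3, a subunit of the M current that restrains repetitive firing, stood at 0.15 ± 0.106 FPKM in BafA1 NPC, 0.102 ± 0.0174 in control NPC and 0.299 ± 0.0798 in hESC (mean ± SD, n = 3 libraries, as for all such values). Among the higher genes in control NPC was CACNB3, an intracellular beta subunit that brings calcium channels to the membrane, at 11.3 ± 0.238 FPKM. CACNA1H, a low-voltage-activated (T-type) calcium channel, followed at 7.27 ± 0.857 FPKM and KCNG1, a silent Kv subunit that conducts only together with KCNB subunits, at 6.92 ± 2.08 FPKM. Its conducting partner KCNB2 was scarce, at 0.139 ± 0.0442 FPKM in control NPC. The FPKM of all 127 genes summed to 144 ± 10.3 in BafA1 NPC, 138 ± 4.07 in control NPC and 185 ± 9.87 in hESC.

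**Figure D1:**
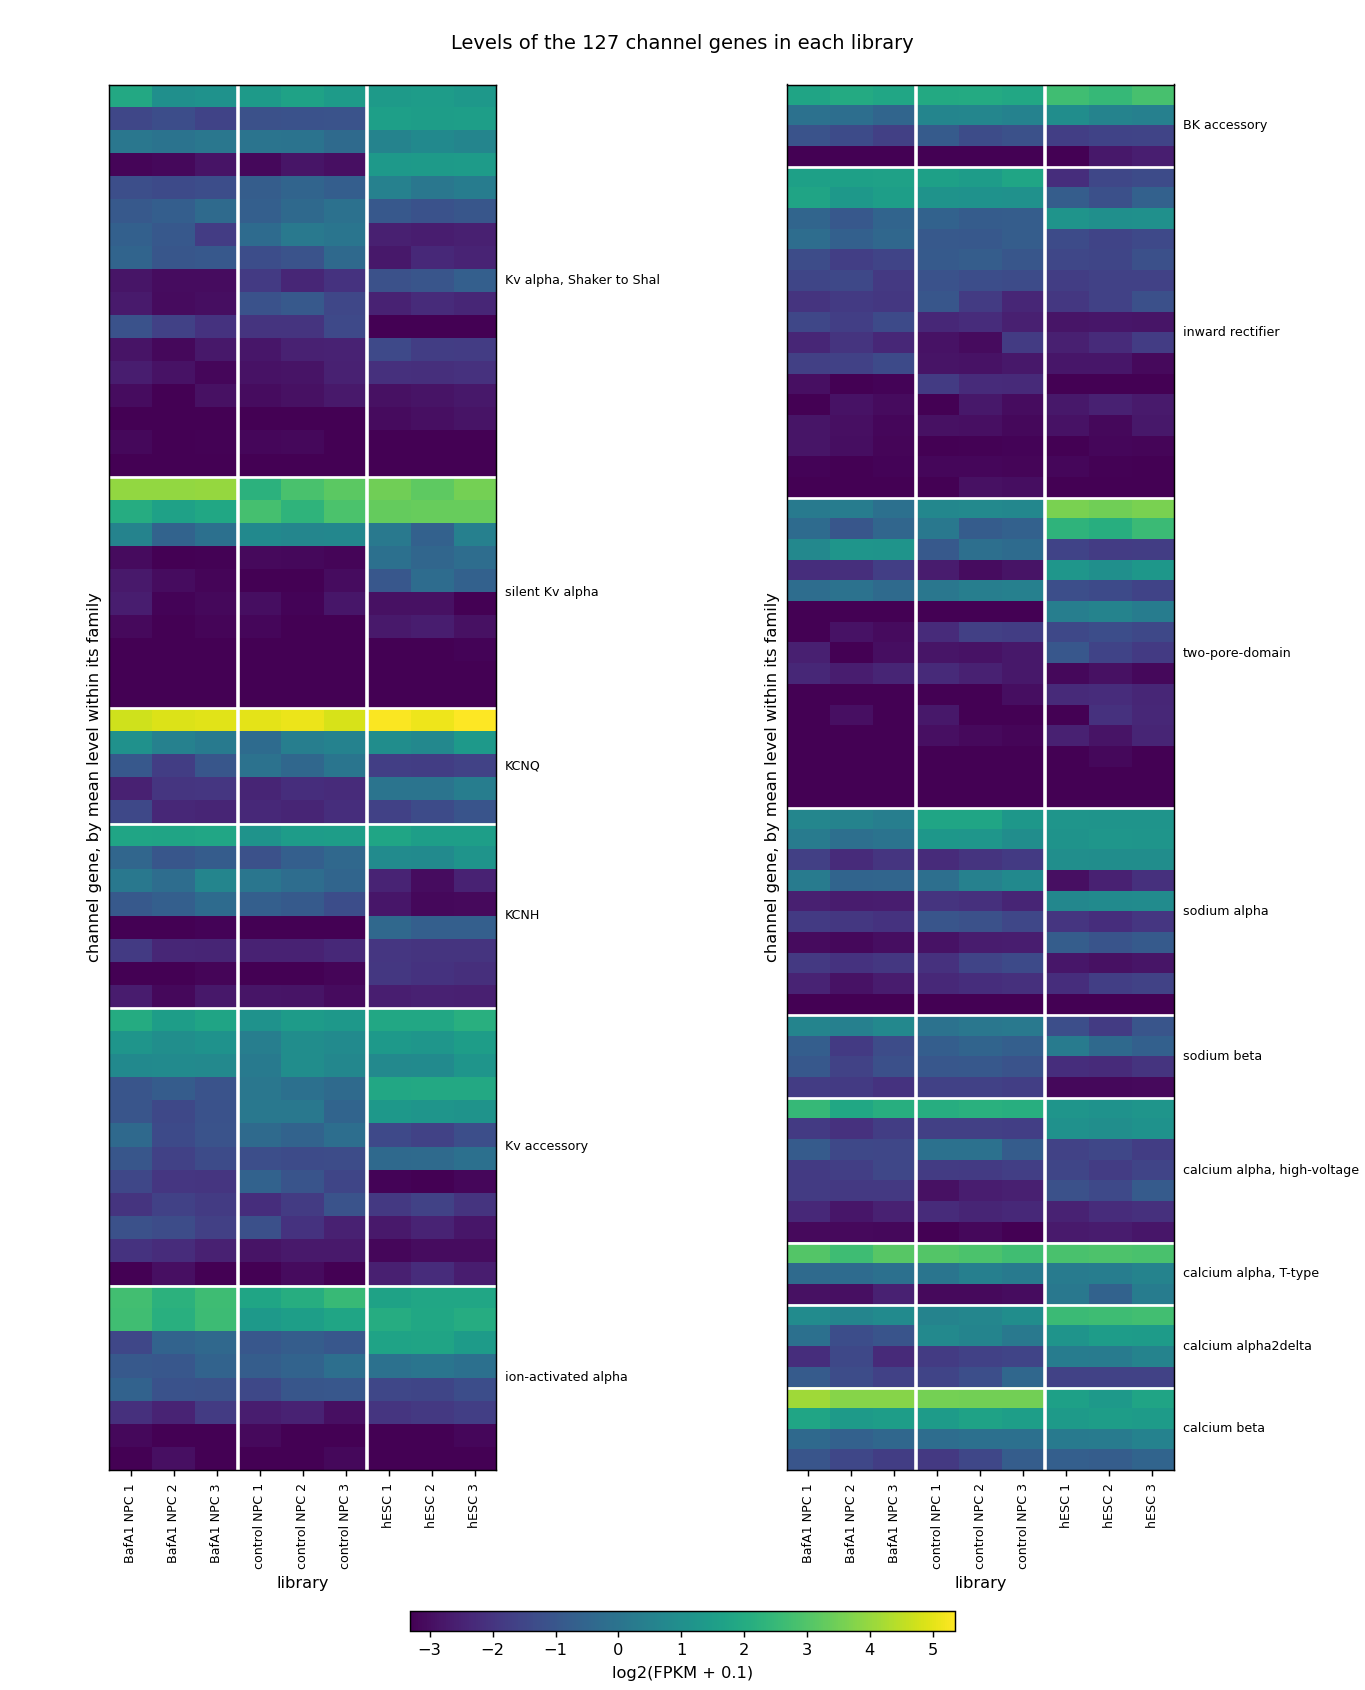
Level of each of the 127 channel genes (rows, grouped by family and ordered by mean level within it) in each of the 9 libraries (columns, BafA1 NPC, control NPC and hESC from left to right) as log2(FPKM + 0.1), from dark (low) to yellow (high). Most rows are dark in every library, since 24 genes in BafA1 NPC, 28 in control NPC and 41 in hESC reach 1 FPKM.

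Of the 127 genes, 108 had enough counts to be tested and 19 did not. KCNA10, KCNG4, KCNV2, KCNK16, KCNK18 and SCN10A had no count in any library, and the other 13 had 2 to 63 counts over all 9 libraries. In each library, 0 counts allow a level of up to 3 counts, which covers counting error only. Because a gene passes the filter when it is high in at least 1 group, counts over the 108 genes do not speak for all 127.

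BafA1 NPC were compared with control NPC to ask what the treatment did to these genes during differentiation. Of the sodium channel alpha subunits 5 were lower, while a G-protein-gated potassium channel subunit (KCNJ6), a two-pore-domain channel (KCNK12), a silent Kv subunit (KCNG1) and small-conductance calcium-activated KCNN1 were higher. In all, 18 of the 108 tested genes were higher in BafA1 NPC and 20 were lower at an adjusted p under 0.05 in the quasi-likelihood test of edgeR. These are 16.7% and 18.5%, next to 20.8% higher and 20.7% lower among all 20685 genes tested, and 35.2% in either direction next to 41.5%. A share near that of all genes is no result about the channel genes as a group, or about a family among them. The 20685 genes exceed the 19672 protein-coding genes of the count table, so that they include others. Every channel gene is protein-coding, and the sets are unlike in this. The median log2 change was 0.03 (-0.07 with library size alone, so that it has no direction), next to 0.00 over all genes, and the median size of the change was 0.54, next to 0.40. A change of at least 2-fold was seen in 10 of the higher and 11 of the lower genes, and its share over all genes was not computed. Leaving out each of the 6 libraries in turn, 12 of the 18 higher and 16 of the 20 lower genes stayed past the threshold every time. The split was 13 higher and 23 lower when scaled by library size alone, and 11 and 18, 10 and 20 or 13 and 21 with limma on log2(FPKM + 1), log2(FPKM + 0.1) or log2(FPKM + 1) of filtered genes.

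**Figure D2:**
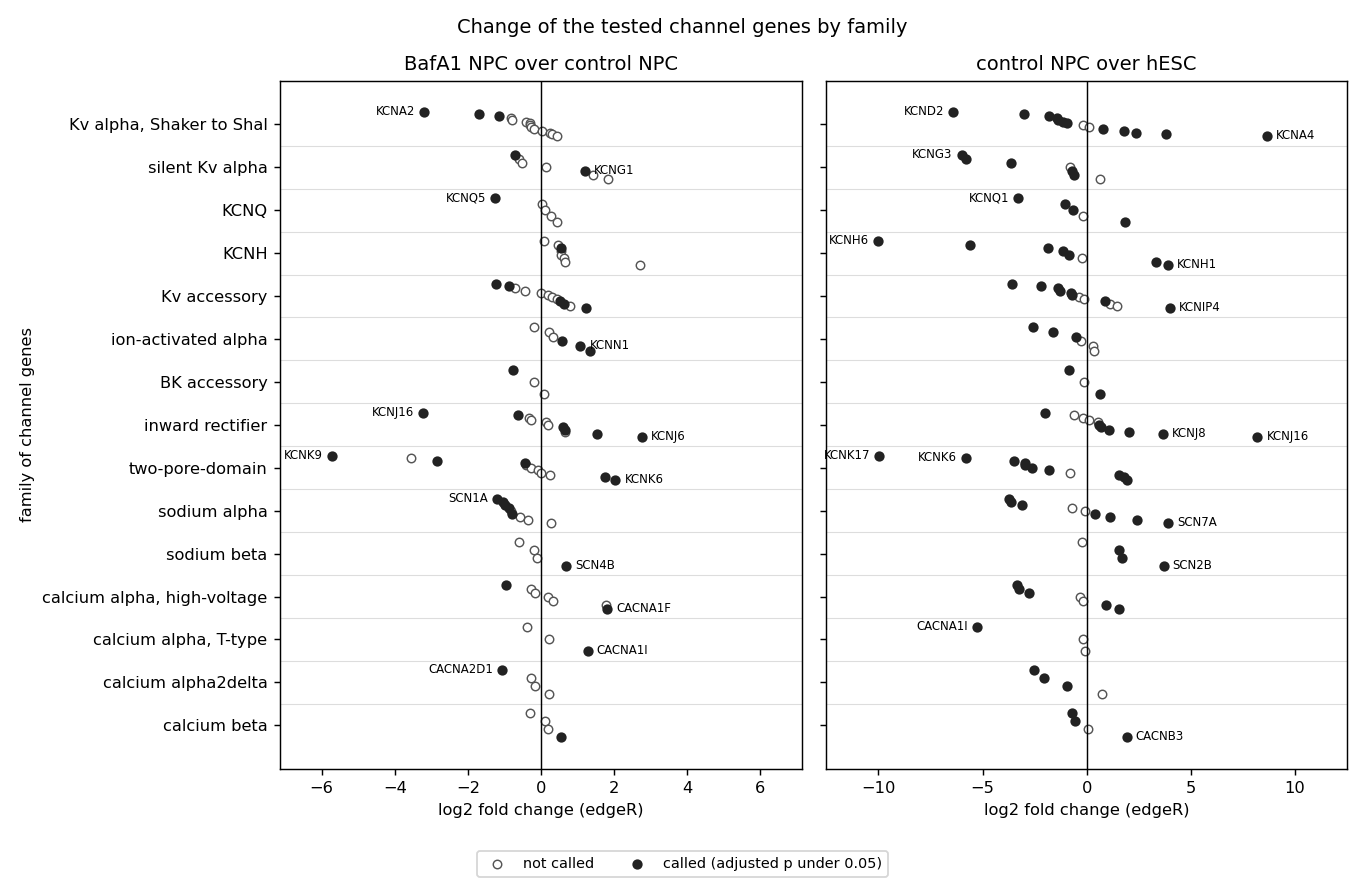
Log2 fold change (horizontal axis) of each tested channel gene by family, for BafA1 NPC over control NPC (left, 38 of 108 called) and control NPC over hESC (right, 80 of 108 called), with filled points at an adjusted p under 0.05 and the horizontal scales of the panels differing. Sodium alpha points sit left of 0 at left except 1, and values of genes with no count in 1 group, such as KCNK9 at left and KCNK17, KCNH6, KCNA4 and KCNJ16 at right, depend on the prior count of the fit.

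Beside 20.7% lower and 20.8% higher among all genes tested, 5 of the 9 tested sodium alpha subunits were lower in BafA1 NPC and none higher. Their summed level was 4.47, 3.27 and 3.32 FPKM in the BafA1 NPC libraries, against 7.36, 7.93 and 6.75 FPKM in control NPC, and 8.50, 8.75 and 8.87 FPKM in hESC. Every BafA1 NPC library was below every other library. Over the same libraries the 12 neuron markers summed to 715 to 772 CPM in BafA1 NPC and 687 to 742 CPM in control NPC. TUBB3 and MAP2 gave most of that sum, with 260 and 281 CPM in BafA1 NPC and 263 and 280 CPM in control NPC. Of the 12, 3 were higher (ELAVL3, SYT1 and RBFOX3) and 0 lower. Libraries overlapped for RBFOX3, with means of 0.656 CPM in BafA1 NPC and 0.327 CPM in control NPC. The part of these markers was not tested. SCN8A, the sodium channel of the axon initial segment and nodes of Ranvier, had 15.3, 12 and 12.4 CPM in BafA1 NPC, against 29.8, 28.2 and 23.2 CPM in control NPC. SCN8A was lower in every BafA1 NPC library than in any control NPC library, with a log2 change of -1.03 (SE 0.12, adjusted p = 7.71e-05). SCN2A, an alpha subunit of excitatory neurons, had 1.82, 1.93 and 1.51 CPM in BafA1 NPC, against 3.74, 3.28 and 2.62 CPM in control NPC. SCN2A was lower in every BafA1 NPC library than in any control NPC library, with a log2 change of -0.88 (SE 0.21, adjusted p = 0.00614). SCN1A, prominent in inhibitory neurons, had 0.328, 0.219 and 0.419 CPM in BafA1 NPC, against 0.52, 0.828 and 0.915 CPM in control NPC. SCN1A was lower in every BafA1 NPC library than in any control NPC library, with a log2 change of -1.19 (SE 0.29, adjusted p = 0.007). SCN9A, known from sensory neurons, had 0.819, 0.756 and 0.73 CPM in BafA1 NPC, against 1.64, 1.4 and 0.986 CPM in control NPC. SCN9A was lower in every BafA1 NPC library than in any control NPC library, with a log2 change of -0.80 (SE 0.20, adjusted p = 0.00748). SCN1A and SCN9A were under 0.2 FPKM in both groups of NPC, and neither passed when log2(FPKM + 1) was tested with limma (adjusted p = 0.345 for SCN1A and 0.253 for SCN9A). Among the genes that did not pass were SCN3A of the embryonic brain (log2 change -0.35, adjusted p = 0.329), the sodium-level sensor SCN7A (-0.56, 0.261), SCN11A (-0.82, 0.0779) and the skeletal muscle channel SCN4A (0.28, 0.335). The 7 muscle markers summed to 4.88 to 7.38 CPM in BafA1 NPC and 5.22 to 5.45 CPM in control NPC, with MYH6 and MYOD1 at 0 in control NPC. Of the 6 tested muscle markers 2 were higher in BafA1 NPC, ACTN2 (log2 change 1.45, adjusted p = 0.000347) and DES (1.65, adjusted p = 0.018), and none was lower. Among the beta subunits only SCN4B, which can give resurgent sodium current, passed, and it had 7.48, 7.39 and 8.48 CPM in BafA1 NPC, against 4.35, 4.9 and 5.3 CPM in control NPC. SCN4B was higher in every BafA1 NPC library than in any control NPC library, with a log2 change of 0.68 (SE 0.21, adjusted p = 0.0196). That call rested on single libraries, since the adjusted p was 0.0667 without BafA1 NPC replicate 3, 0.067 without control NPC replicate 1 and 0.0572 without control NPC replicate 2. The beta subunits SCN2B and SCN3B had adjusted p = 0.567 and 0.692.

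The stretches just before the start of some called genes, picked by hand, are shown to let their base composition be seen beside the direction of change. Each is the 200 bases before a RefSeq start, on the gene's strand, in GRCh38.p14, and capitals mark matches to a searched motif. Only stretches outside the annotated gene are shown, so that some starts are left out. Over 250 bases, other starts had 74.8% G or C in KCNA2 and 33.6% in SCN1A. SCN9A, also lower in BafA1 NPC and not shown, had 74.0% over such a window. SCN8A (chr12:51591033-51591232, plus strand, 84.5% G or C), SCN2A (chr2:165239214-165239413, plus strand, 32.5%), SCN1A (chr2:166149162-166149361, minus strand, 47.0%) and KCNA2 (chr1:110631441-110631640, minus strand, 49.0%) were lower in BafA1 NPC. KCNJ6 (chr21:37916458-37916657, minus strand, 73.0%) and CACNB3 (chr12:48814280-48814479, plus strand, 64.5%) were higher.
SCN8A: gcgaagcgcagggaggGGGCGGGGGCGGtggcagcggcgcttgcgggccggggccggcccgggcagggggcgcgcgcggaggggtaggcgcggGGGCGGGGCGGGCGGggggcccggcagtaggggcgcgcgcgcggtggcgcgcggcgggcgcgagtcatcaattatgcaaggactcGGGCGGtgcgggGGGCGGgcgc
SCN2A: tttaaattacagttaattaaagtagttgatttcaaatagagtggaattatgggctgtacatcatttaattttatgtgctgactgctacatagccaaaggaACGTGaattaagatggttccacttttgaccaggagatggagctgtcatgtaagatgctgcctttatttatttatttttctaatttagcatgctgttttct
SCN1A: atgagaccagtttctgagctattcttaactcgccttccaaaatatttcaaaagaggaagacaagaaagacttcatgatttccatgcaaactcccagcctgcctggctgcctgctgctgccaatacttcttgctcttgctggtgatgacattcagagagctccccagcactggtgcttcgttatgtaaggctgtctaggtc
KCNA2: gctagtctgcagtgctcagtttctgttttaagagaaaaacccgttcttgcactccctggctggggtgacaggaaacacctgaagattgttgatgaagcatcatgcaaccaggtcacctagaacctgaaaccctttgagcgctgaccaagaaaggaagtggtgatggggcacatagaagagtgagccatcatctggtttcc
KCNJ6: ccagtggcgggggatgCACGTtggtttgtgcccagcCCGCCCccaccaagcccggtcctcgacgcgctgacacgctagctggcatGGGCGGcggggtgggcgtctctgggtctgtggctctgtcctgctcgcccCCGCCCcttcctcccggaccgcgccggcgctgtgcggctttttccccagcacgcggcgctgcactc
CACNB3: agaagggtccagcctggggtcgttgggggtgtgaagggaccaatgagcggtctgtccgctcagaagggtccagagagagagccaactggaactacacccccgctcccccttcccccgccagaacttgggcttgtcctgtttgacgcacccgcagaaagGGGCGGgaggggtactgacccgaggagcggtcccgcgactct
The lower genes shown range from the GC-rich start of SCN8A, with repeated GC boxes, to the AT-rich start of SCN2A. In RefSeq's table, 95 of the 127 genes had 1 or more windows of 250 bases before a start. On either strand, the GC box GGGCGG was found in 66.3% of these genes, against 46.2% of all 27305 genes with a window, and the hypoxia element core ACGTG in 24.2% against 21.7%. The AP-1 element TGACTCA was found in 6.32% against 5.19%, TATAAA in 11.6% against 13%, and the left part of the REST element, TTCAGCACC, in 2.11% (KCNH6 and KCNK3) against 0.355%. The GC box was found in 12 of 15 genes that were higher in BafA1 NPC, 11 of 16 that were lower and 34 of 47 that did not pass. The median GC content of the windows was 65.5% in the higher, 72.5% in the lower and 65.6% in the other tested channel genes, against 58.0% over all genes. These are matches of letters and not sites of binding. The 27305 genes exceed the 19672 protein-coding genes of the count table, while every channel gene is protein-coding, so that the sets are unlike. A gene with several windows counted as matched when any 1 of them matched.

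Kv alpha subunits of the Shaker to Shal families were lower in 3 of 14 tested genes and higher in none. The shares over all genes tested were 20.7% lower and 20.8% higher. KCNA2, a delayed rectifier of axons, had the lowest ratio of the 3 lower genes. Its levels were 0.783, 0.317 and 0.388 CPM in BafA1 NPC, against 4.62, 5.63 and 3.56 CPM in control NPC. KCNA2 was lower in every BafA1 NPC library than in any control NPC library, with a log2 change of -3.19 (SE 0.33, adjusted p = 3.62e-05). KCNC1, a fast channel of rapidly firing neurons, had 3.88, 3.36 and 1.44 CPM in BafA1 NPC, against 5.1, 7.11 and 6.92 CPM in control NPC. KCNC1 was lower in every BafA1 NPC library than in any control NPC library, with a log2 change of -1.15 (SE 0.32, adjusted p = 0.0126). KCNB2, a delayed rectifier, had 0.437, 0.268 and 0.233 CPM in BafA1 NPC, against 1.04, 0.879 and 1.14 CPM in control NPC. KCNB2 was lower in every BafA1 NPC library than in any control NPC library, with a log2 change of -1.7 (SE 0.31, adjusted p = 0.00118). The delayed rectifier KCNA1 and the A-type channel KCND2 did not pass (adjusted p = 0.371 and 0.645), both being under 0.5 CPM in every NPC library.

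Of the silent Kv subunits, KCNG1 was higher and KCNS3 lower. KCNG1 had 46.4, 49.4 and 46.3 CPM in BafA1 NPC, against 13.7, 21.4 and 26.8 CPM in control NPC. KCNG1 was higher in every BafA1 NPC library than in any control NPC library, with a log2 change of 1.2 (SE 0.18, adjusted p = 0.000381). In hESC it had 32.8, 28.2 and 33.7 CPM. All hESC libraries lay between those of the NPC groups. KCNS3 had 11.6, 9.31 and 9.83 CPM in BafA1 NPC, against 17.8, 12.7 and 19.6 CPM in control NPC. KCNS3 was lower in every BafA1 NPC library than in any control NPC library, with a log2 change of -0.70 (SE 0.15, adjusted p = 0.00317). The third most abundant, KCNF1, did not pass (adjusted p = 0.139). In the KCNQ family only KCNQ5, also an M current subunit, passed, with 2.79, 1.54 and 2.45 CPM in BafA1 NPC, against 5.56, 4.38 and 6.3 CPM in control NPC. KCNQ5 was lower in every BafA1 NPC library than in any control NPC library, with a log2 change of -1.25 (SE 0.23, adjusted p = 0.00118). Of the 8 KCNH genes, KCNH2, the channel of the cardiac repolarising current that many drugs block, was the single one to pass, with 15.9, 16.5 and 16.8 CPM in BafA1 NPC, against 9.65, 11.6 and 12.7 CPM in control NPC. KCNH2 was higher in every BafA1 NPC library than in any control NPC library, with a log2 change of 0.54 (SE 0.12, adjusted p = 0.00492).

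Accessory subunits of Kv channels were higher in 3 and lower in 2 of 12 genes, near the 20.8% higher and 20.7% lower of all genes tested. KCNAB2, a cytoplasmic beta subunit of Shaker channels, averaged 15.7 ± 2.08 CPM in BafA1 NPC and 10.1 ± 1.13 CPM in control NPC (log2 change 0.63 ± 0.13 SE, adjusted p = 0.00302). KCNIP2, a calcium sensor that binds KCND channels, averaged 5.24 ± 0.255 CPM in BafA1 NPC and 3.63 ± 0.683 CPM in control NPC (log2 change 0.53 ± 0.17 SE, adjusted p = 0.0241), a call that was lost without BafA1 NPC replicate 1 (adjusted p = 0.0503) or control NPC replicate 1 (0.0816). KCNE1, a partner of KCNQ1, had 0.546, 0.536 and 0.279 CPM in BafA1 NPC, against 0.154, 0.203 and 0.211 CPM in control NPC. KCNE1 was higher in every BafA1 NPC library than in any control NPC library, with a log2 change of 1.23 (SE 0.43, adjusted p = 0.0391). It lost its call without any 1 of 5 of the 6 libraries (adjusted p 0.0718 to 0.121). KCNE1 has a near-identical copy in the genome, which makes its counts uncertain. The single-span subunits KCNE3 and KCNE5 were lower. KCNE3 had 1.4, 1.07 and 1.32 CPM in BafA1 NPC, against 3.45, 3.31 and 2.11 CPM in control NPC. KCNE3 was lower in every BafA1 NPC library than in any control NPC library, with a log2 change of -1.22 (SE 0.21, adjusted p = 0.000936). KCNE5 averaged 0.757 ± 0.148 CPM in BafA1 NPC and 1.38 ± 0.233 CPM in control NPC (log2 change -0.88 ± 0.21 SE, adjusted p = 0.00573).

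Of the 6 tested calcium- or sodium-activated alpha subunits, 3 were higher in BafA1 NPC and none lower. Shares of all genes tested were 20.8% higher and 20.7% lower. KCNN1, a small-conductance channel that takes part in after-hyperpolarisation, had 17.7, 13.3 and 16.9 CPM in BafA1 NPC, against 6.12, 7.6 and 8.99 CPM in control NPC. KCNN1 was higher in every BafA1 NPC library than in any control NPC library, with a log2 change of 1.08 (SE 0.16, adjusted p = 0.000319). Its libraries in BafA1 NPC were above all others, since hESC had 11.2, 9.79 and 11.2 CPM. KCNT2, a sodium-activated channel, had 44.6, 34.3 and 44.4 CPM in BafA1 NPC, against 20.9, 26.3 and 35.5 CPM in control NPC. KCNT2 values of BafA1 NPC and control NPC overlapped, with a log2 change of 0.58 (SE 0.17, adjusted p = 0.0155). Its call was lost without BafA1 NPC replicate 3 (adjusted p = 0.0587), control NPC replicate 1 (0.0529) or control NPC replicate 2 (0.0577). KCNN4, the intermediate-conductance channel, had 0.51, 0.341 and 0.73 CPM in BafA1 NPC, against 0.231, 0.287 and 0.106 CPM in control NPC. KCNN4 was higher in every BafA1 NPC library than in any control NPC library, with a log2 change of 1.35 (SE 0.44, adjusted p = 0.0271). It was lost without BafA1 NPC replicate 3 (adjusted p = 0.118), control NPC replicate 1 (0.0528) or control NPC replicate 3 (0.0808). KCNMA1, the large-conductance (BK) channel, averaged 3.39 ± 0.307 CPM in BafA1 NPC and 3.83 ± 1.39 CPM in control NPC (adjusted p = 0.567). Its accessory subunit KCNMB3 had 1.89, 2.0 and 1.38 CPM in BafA1 NPC, against 3.0, 3.08 and 2.8 CPM in control NPC. KCNMB3 was lower in every BafA1 NPC library than in any control NPC library, with a log2 change of -0.76 (SE 0.21, adjusted p = 0.0132). It did not pass without BafA1 NPC replicate 3 (adjusted p = 0.052). The more abundant KCNMB4 averaged 20.3 ± 2.63 CPM in BafA1 NPC and 19.2 ± 0.398 CPM in control NPC (adjusted p = 0.626), and KCNMB1 did not pass (adjusted p = 0.568).

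Inward rectifiers held the largest called rise of all 108 genes. KCNJ6 is a G-protein-gated channel that in the midbrain lies downstream of dopamine autoreceptors. It had 5.03, 5.7 and 6.86 CPM in BafA1 NPC, against 0.789, 0.76 and 1.04 CPM in control NPC. KCNJ6 was higher in every BafA1 NPC library than in any control NPC library, with a log2 change of 2.76 (SE 0.30, adjusted p = 5.35e-05). In hESC it had 0.983, 1.03 and 0.409 CPM. All BafA1 NPC libraries were above all of the other 6. Its level per length was low, at 0.241 ± 0.0407 FPKM in BafA1 NPC and 0.0391 ± 0.00659 FPKM in control NPC. KCNJ9, which assembles with KCNJ6, had 1.33, 1.12 and 1.44 CPM in BafA1 NPC, against 0.462, 0.541 and 0.334 CPM in control NPC. KCNJ9 was higher in every BafA1 NPC library than in any control NPC library, with a log2 change of 1.54 (SE 0.29, adjusted p = 0.00138). KCNJ3, the remaining widespread member of that group in brain, averaged 0.447 ± 0.0359 CPM in BafA1 NPC and 0.28 ± 0.235 CPM in control NPC and did not pass (adjusted p = 0.323). The strong rectifiers KCNJ2 and KCNJ4 were higher. KCNJ2 averaged 4.32 ± 0.55 CPM in BafA1 NPC and 2.72 ± 0.263 CPM in control NPC (log2 change 0.67 ± 0.18 SE, adjusted p = 0.00977). KCNJ4 averaged 6.88 ± 0.941 CPM in BafA1 NPC and 4.58 ± 0.0463 CPM in control NPC (log2 change 0.59 ± 0.18 SE, adjusted p = 0.0235). The call of KCNJ4 was lost without BafA1 NPC replicate 1 (adjusted p = 0.0707), control NPC replicate 1 (0.0577) or control NPC replicate 2 (0.0665). KCNJ16, a subunit that joins KCNJ10 in glia and epithelia, had 0.146, 0 and 0.0466 CPM in BafA1 NPC, against 0.886, 0.541 and 0.528 CPM in control NPC. KCNJ16 was lower in every BafA1 NPC library than in any control NPC library, with a log2 change of -3.23 (SE 0.71, adjusted p = 0.00538). Its levels in BafA1 NPC go down to 0, so that the size of the fold is uncertain. KCNJ12 averaged 1.64 ± 0.257 CPM in BafA1 NPC and 2.56 ± 0.237 CPM in control NPC (log2 change -0.64 ± 0.21 SE, adjusted p = 0.0262). KCNJ12 shares near-identical sequence with KCNJ18, and was lost without any 1 of 4 libraries (adjusted p 0.0506 to 0.0993). The pore subunits of ATP-sensitive channels did not pass, with KCNJ8 at 8.37 ± 0.289 CPM in BafA1 NPC and 7.58 ± 0.998 CPM in control NPC and KCNJ11 at 2.18 ± 0.254 CPM in BafA1 NPC and 1.91 ± 0.173 CPM in control NPC.

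Two-pore-domain channels, which carry background potassium current, were higher in 2 and lower in 3 of 11 genes. Of all genes tested, 20.8% were higher and 20.7% lower. KCNK12 had 25.5, 38.7 and 35.3 CPM in BafA1 NPC, against 6.62, 11.8 and 11 CPM in control NPC. KCNK12 was higher in every BafA1 NPC library than in any control NPC library, with a log2 change of 1.75 (SE 0.21, adjusted p = 8.21e-05). In hESC it had 3.7, 3.09 and 3.12 CPM, below both groups of NPC. KCNK6 had 0.838, 0.951 and 1.3 CPM in BafA1 NPC, against 0.366, 0.152 and 0.246 CPM in control NPC. KCNK6 was higher in every BafA1 NPC library than in any control NPC library, with a log2 change of 2.04 (SE 0.29, adjusted p = 0.000255). These levels lay below those of hESC, 14.5, 12.4 and 15.2 CPM. KCNK6 did not pass when log2(FPKM + 1) was tested with limma (adjusted p = 0.144). KCNK5, an alkaline-activated channel, averaged 4.81 ± 0.993 CPM in BafA1 NPC and 6.52 ± 0.0567 CPM in control NPC (log2 change -0.45 ± 0.13 SE, adjusted p = 0.0184), and was lost without BafA1 NPC replicate 3 (adjusted p = 0.0589) or with only these groups in the fit (0.0752). KCNK2, a mechanically gated channel, had 0, 0.219 and 0.124 CPM in BafA1 NPC, against 0.597, 0.896 and 0.862 CPM in control NPC. KCNK2 was lower in every BafA1 NPC library than in any control NPC library, with a log2 change of -2.84 (SE 0.59, adjusted p = 0.00264). The size of that fold is uncertain, since levels in BafA1 NPC go down to 0. KCNK9, an acid-sensitive channel, had no count in BafA1 NPC and 0.0704 to 0.173 CPM in control NPC, near the level of 3 counts, so that no fold is given.

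Calcium channel genes were higher in 3 and lower in 2 of the 18, all of which were tested. Over all genes tested, the shares were 20.8% higher and 20.7% lower. CACNB3 had 60.1, 52.4 and 48.7 CPM in BafA1 NPC, against 37.2, 35.1 and 38 CPM in control NPC. CACNB3 was higher in every BafA1 NPC library than in any control NPC library, with a log2 change of 0.55 (SE 0.11, adjusted p = 0.00218). In hESC it had 9.8, 8.28 and 10.9 CPM, below both groups of NPC. CACNA1F, an L-type channel of the retina, had 1.35, 1.36 and 1.26 CPM in BafA1 NPC, against 0.231, 0.406 and 0.475 CPM in control NPC. CACNA1F was higher in every BafA1 NPC library than in any control NPC library, with a log2 change of 1.82 (SE 0.30, adjusted p = 0.000581). CACNA1I, a T-type channel, had 0.528, 0.512 and 1.01 CPM in BafA1 NPC, against 0.25, 0.253 and 0.352 CPM in control NPC. CACNA1I was higher in every BafA1 NPC library than in any control NPC library, with a log2 change of 1.28 (SE 0.33, adjusted p = 0.00859). It was under 0.05 FPKM in both groups, and did not pass with limma on log2(FPKM + 1) (adjusted p = 0.9). CACNA1D, the L-type channel of pacemaking neurons, was lower, with 5.24, 3.31 and 3.0 CPM in BafA1 NPC, against 8.84, 8.4 and 5.07 CPM in control NPC. CACNA1D values of BafA1 NPC and control NPC overlapped, with a log2 change of -0.95 (SE 0.26, adjusted p = 0.0113). Without BafA1 NPC replicate 3 its adjusted p was 0.0501. CACNA2D1, an extracellular subunit to which gabapentin binds, was lower, with 7.23, 3.85 and 3.94 CPM in BafA1 NPC, against 12.1, 11.2 and 8.32 CPM in control NPC. CACNA2D1 was lower in every BafA1 NPC library than in any control NPC library, with a log2 change of -1.07 (SE 0.23, adjusted p = 0.00326). The abundant pore subunits did not pass. CACNA1A, of presynaptic P/Q-type channels, averaged 47.1 ± 9.06 CPM in BafA1 NPC and 40.9 ± 1.09 CPM in control NPC (adjusted p = 0.186, and 0.0401 without BafA1 NPC replicate 2). CACNA1H averaged 73.5 ± 7.97 CPM in BafA1 NPC and 63.4 ± 6.1 CPM in control NPC (adjusted p = 0.102, and 0.0274 without that library). T-type CACNA1G had adjusted p = 0.0558, but was lower in 7 of the alternatives, at 0.0134 to 0.0499. CACNA1B, CACNA1C and CACNA1E, of N-, L- and R-type channels, had adjusted p = 0.421, 0.189 and 0.48, and the beta subunits CACNB1 and CACNB4 0.205 and 0.153.

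**Figure D3:**
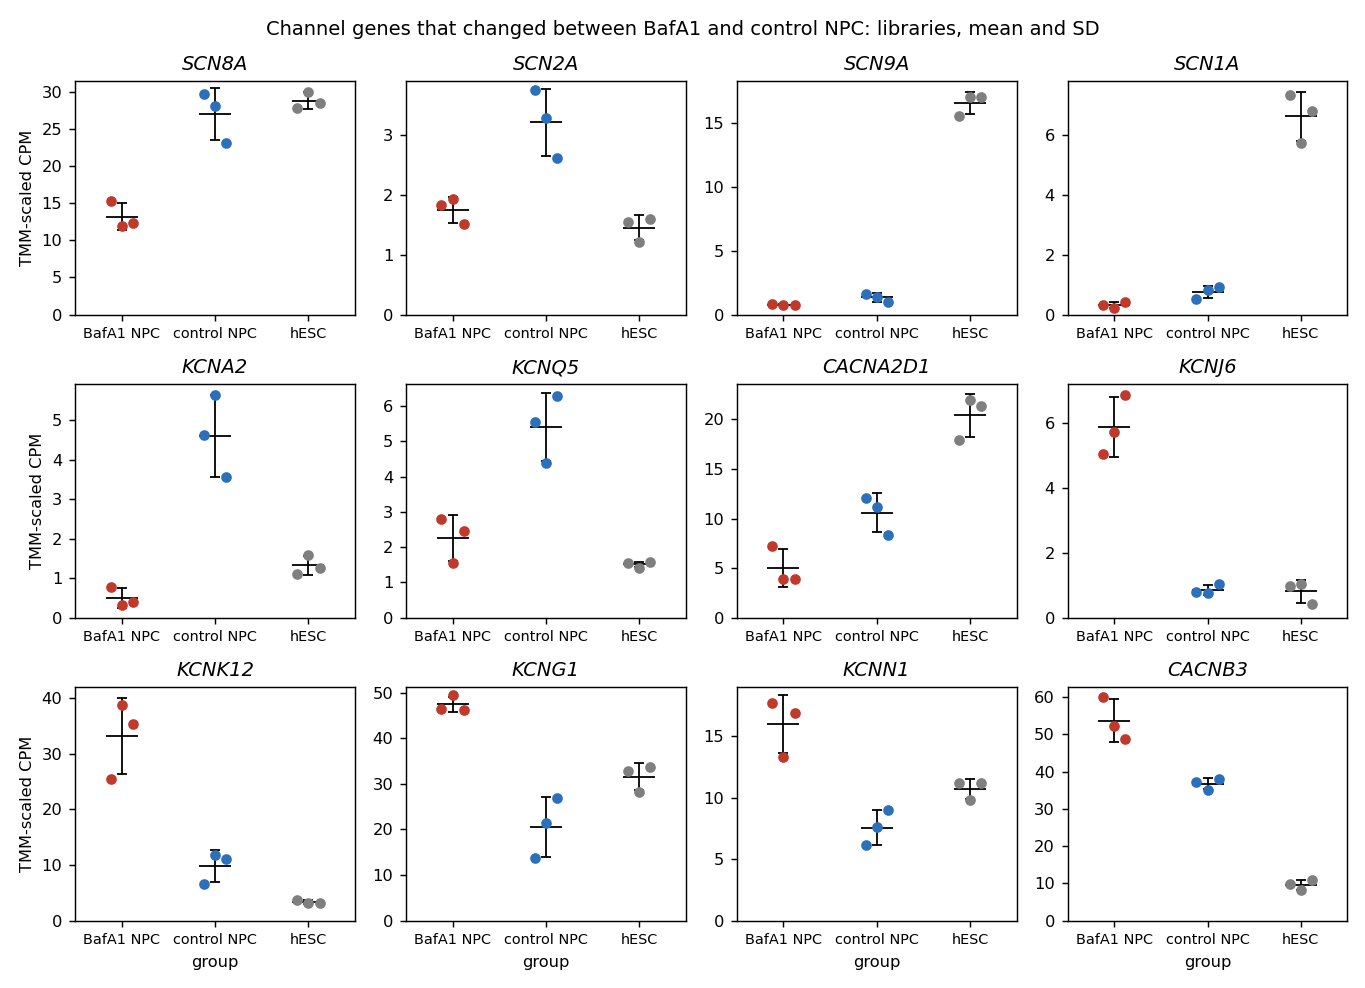
TMM-scaled CPM of 12 channel genes that changed between BafA1 NPC and control NPC, with a point per library and the mean and SD (n = 3) of BafA1 NPC, control NPC and hESC from left to right, each panel on its own axis from 0. The first 7 genes (SCN8A to CACNA2D1) are lower and the last 5 (KCNJ6 to CACNB3) higher in BafA1 NPC than in control NPC, and in each panel the points of these groups are apart.

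Control NPC were compared with hESC to give the scale of the differentiation itself. Channel genes were more often lower than higher: 50 of 108 were lower in control NPC (46.3%) and 30 higher (27.8%), next to 31.6% lower and 33.0% higher among all genes tested, and 74.1% changed in either direction, next to 64.5%. Here too, all genes tested include some that are not protein-coding. The median log2 change was -0.44, next to 0.03 over all genes, and the median size of the change was 1.41, next to 0.65. The median change depended on the scale, and was -0.05 with limma on log2(FPKM + 1), -0.08 on the same scale of filtered genes, and -0.29 both on log2(FPKM + 0.1) and with GC and length trends removed. At least 2-fold, 38 genes were lower and 23 higher, again without a share over all genes. Leaving out each of the 6 libraries in turn, 43 of the 50 lower and 25 of the 30 higher genes kept their call. Among the lower genes that lost it at least once were CACNB2, KCNA5, KCNH3, KCNH5, KCNK9 and KCNN1 (adjusted p 0.0506 to 0.135), and among the higher genes KCNA3, KCNJ9, KCNJ12 and KCNMB1 (0.056 to 0.175). Control NPC serve both comparisons, so that the changes of a gene in the 2 comparisons are not independent, and they are given side by side only as values.

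Two-pore-domain channels had the lowest median change of the 15 families, -2.65 on the log2 scale. Of 11 genes 7 were lower and 3 higher, next to 31.6% lower and 33.0% higher among all genes tested. The summed level of two-pore-domain channels was 4.39, 4.45 and 4.46 FPKM in control NPC, against 21.9, 20.1 and 22.7 FPKM in hESC. KCNK5, which held 54.7% of that sum in hESC, had 6.47, 6.52 and 6.58 CPM in control NPC, against 53.4, 49.1 and 52.3 CPM in hESC. KCNK5 was lower in every control NPC library than in any hESC library, with a log2 change of -2.98 (SE 0.13, adjusted p = 2.94e-09). KCNK1, a weakly rectifying channel, averaged 1.57 ± 0.681 CPM in control NPC and 12 ± 1.78 CPM in hESC (log2 change -2.94 ± 0.28 SE, adjusted p = 2.13e-06). KCNK6 averaged 0.255 ± 0.107 CPM in control NPC and 14 ± 1.42 CPM in hESC (log2 change -5.79 ± 0.28 SE, adjusted p = 5.42e-09). KCNK17 had no count in control NPC, against 2.18, 2.5 and 2.05 CPM in hESC, and was at least 41.7-fold lower when control NPC are set at 3 counts per library. The channels that rose were KCNK12 (log2 change 1.57), the mechanically gated KCNK10 (1.93) and the acid-sensitive KCNK3 (1.79).

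Among Kv subunits, A-type KCND2 was the largest called fall of a gene with counts in both groups, with 0.116, 0.27 and 0.211 CPM in control NPC, against 16.9, 17.6 and 17.3 CPM in hESC. KCND2 was lower in every control NPC library than in any hESC library, with a log2 change of -6.4 (SE 0.32, adjusted p = 6.93e-09). KCNC4 averaged 1.76 ± 0.135 CPM in control NPC and 14.1 ± 0.638 CPM in hESC (log2 change -3.0 ± 0.16 SE, adjusted p = 1.59e-08). KCNB2, KCNA5, KCNA6 and KCND1 also fell, by 0.94 to 1.42 on the log2 scale. In the other direction, KCNC1 had 5.1, 7.11 and 6.92 CPM in control NPC, against 0.538, 0.313 and 0.512 CPM in hESC. KCNC1 was higher in every control NPC library than in any hESC library, with a log2 change of 3.8 (SE 0.37, adjusted p = 2.28e-06). KCND3, the other A-type channel of brain and heart, averaged 3.71 ± 1.72 CPM in control NPC and 0.712 ± 0.249 CPM in hESC (log2 change 2.39 ± 0.36 SE, adjusted p = 0.000107). KCNA2 averaged 4.6 ± 1.04 CPM in control NPC and 1.32 ± 0.243 CPM in hESC (log2 change 1.81 ± 0.30 SE, adjusted p = 0.000204). KCNA3, a channel known from lymphocytes, averaged 3.21 ± 0.823 CPM in control NPC and 1.89 ± 0.0872 CPM in hESC (adjusted p = 0.0138, and 0.0603 without control NPC replicate 3). KCNA4 had 0.693 to 1.32 CPM in control NPC and no count in hESC, and was at least 17.7-fold higher. Of the 7 silent subunits 5 fell and none rose, with KCNG1 not called once GC and length trends were removed (adjusted p = 0.223). Among all genes tested, 31.6% were lower and 33.0% higher. KCNS1 averaged 0.0899 ± 0.0329 CPM in control NPC and 5.06 ± 0.594 CPM in hESC, and KCNG3 0.0352 ± 0.061 CPM in control NPC and 2.44 ± 0.71 CPM in hESC.

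KCNQ1, the subunit of the slow cardiac current, had 0.308, 0.422 and 0.405 CPM in control NPC, against 3.4, 3.48 and 4.37 CPM in hESC. KCNQ1 was lower in every control NPC library than in any hESC library, with a log2 change of -3.3 (SE 0.31, adjusted p = 1.55e-06). An antisense gene overlaps it, and no source used here says whether counting used strand. KCNQ3 fell (log2 change -1.06, adjusted p = 0.00412) and KCNQ5 rose (1.84, adjusted p = 2.38e-05). In the KCNH family, KCNH1 had 4.68, 4.0 and 2.85 CPM in control NPC, against 0.43, 0.147 and 0.171 CPM in hESC. KCNH1 was higher in every control NPC library than in any hESC library, with a log2 change of 3.9 (SE 0.37, adjusted p = 2.04e-06). KCNH7 averaged 3.18 ± 0.624 CPM in control NPC and 0.306 ± 0.17 CPM in hESC (log2 change 3.35 ± 0.37 SE, adjusted p = 6.69e-06). Against these 2 rises stood 5 falls among 8 genes, next to 33.0% higher and 31.6% lower among all genes tested. KCNH8 averaged 2.9 ± 0.919 CPM in control NPC and 10.6 ± 1.28 CPM in hESC (log2 change -1.86 ± 0.23 SE, adjusted p = 1.95e-05). KCNH6 had no count in control NPC, against 2.81, 1.99 and 2.1 CPM in hESC, and was at least 42.8-fold lower. KCNIP4, a KCND-binding calcium sensor, averaged 1.09 ± 0.41 CPM in control NPC and 0.0654 ± 0.0605 CPM in hESC (log2 change 3.98 ± 0.60 SE, adjusted p = 9.61e-05). Its hESC level is near that of 3 counts, so that the size of the fold is uncertain. In all, 2 of 12 accessory genes rose and 6 fell, next to the same shares of all genes tested. Among the falls were KCNE5 (log2 change -2.18) and KCNE3 (-1.39). KCNN2, a small-conductance calcium-activated channel, averaged 1.61 ± 0.163 CPM in control NPC and 9.47 ± 1.06 CPM in hESC (log2 change -2.56 ± 0.23 SE, adjusted p = 1.28e-06).

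Inward rectifiers were higher in control NPC in 6 of 11 genes and lower in 1. Among all genes tested, 33.0% were higher and 31.6% lower. The sum of inward rectifiers was 7.63, 7.01 and 7.65 FPKM in control NPC, against 3.97, 3.72 and 4.31 FPKM in hESC. KCNJ8, an ATP-sensitive channel subunit of vessels and heart, had 7.34, 6.72 and 8.68 CPM in control NPC, against 0.323, 0.70 and 0.802 CPM in hESC. KCNJ8 was higher in every control NPC library than in any hESC library, with a log2 change of 3.65 (SE 0.26, adjusted p = 1.71e-07). KCNJ4 averaged 4.58 ± 0.0463 CPM in control NPC and 1.11 ± 0.264 CPM in hESC (log2 change 2.04 ± 0.20 SE, adjusted p = 2.49e-06). KCNJ16 had 0.528 to 0.886 CPM in control NPC and no count in hESC, and was at least 12.8-fold higher. KCNJ11, the ATP-sensitive subunit of beta cells and neurons, was the 1 that fell, with 2.1, 1.76 and 1.88 CPM in control NPC, against 8.44, 7.57 and 7.25 CPM in hESC. KCNJ11 was lower in every control NPC library than in any hESC library, with a log2 change of -2.02 (SE 0.17, adjusted p = 5.22e-07). KCNJ8 rose beside the 5 mesenchyme markers, all higher in control NPC, and 3 of 3 endothelium markers were lower, at 4.54 to 9.41 CPM in sum in control NPC and 33.3 to 38.2 CPM in hESC. The part of these markers was not tested.

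Sodium channels changed in both directions. Alpha subunits rose in 4 of 9 genes and fell in 3, next to 33.0% higher and 31.6% lower among all genes tested. SCN3A had 1.42, 2.5 and 2.96 CPM in control NPC, against 0.507, 0.331 and 0.426 CPM in hESC. SCN3A was higher in every control NPC library than in any hESC library, with a log2 change of 2.43 (SE 0.30, adjusted p = 1.94e-05). SCN7A averaged 10.3 ± 3.5 CPM in control NPC and 0.689 ± 0.458 CPM in hESC (log2 change 3.92 ± 0.45 SE, adjusted p = 1.02e-05). SCN2A averaged 3.21 ± 0.559 CPM in control NPC and 1.45 ± 0.205 CPM in hESC (log2 change 1.14 ± 0.21 SE, adjusted p = 0.000498). SCN9A had 1.64, 1.4 and 0.986 CPM in control NPC, against 15.6, 17.1 and 17.1 CPM in hESC. SCN9A was lower in every control NPC library than in any hESC library, with a log2 change of -3.63 (SE 0.19, adjusted p = 9.05e-09). SCN1A averaged 0.754 ± 0.208 CPM in control NPC and 6.61 ± 0.814 CPM in hESC (log2 change -3.12 ± 0.26 SE, adjusted p = 5.48e-07). SCN4A averaged 1.26 ± 0.302 CPM in control NPC and 16.6 ± 0.324 CPM in hESC (log2 change -3.72 ± 0.22 SE, adjusted p = 3.41e-08). SCN4A lay beside muscle markers of 5.22 to 5.45 CPM in control NPC and 43.5 to 56.3 CPM in hESC, 4 of 6 tested being lower. SCN8A averaged 27.1 ± 3.47 CPM in control NPC and 28.9 ± 1.12 CPM in hESC, with groups that overlapped (adjusted p = 0.517). Of the 4 beta subunits 3 rose. SCN2B averaged 1.19 ± 0.0185 CPM in control NPC and 0.0894 ± 0.0146 CPM in hESC (log2 change 3.7 ± 0.32 SE, adjusted p = 8.98e-07), and the log2 changes of SCN3B and SCN4B were 1.57 and 1.68. The SCN2B level in hESC is near that of 3 counts, so that the size of its fold is uncertain.

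The 5 sodium alpha genes of a cluster on chromosome 2 differed in direction. From low to high coordinate in GRCh38.p14 they are SCN3A (165087526 to 165204050), SCN2A (165239414 to 165392304), SCN1A (165984641 to 166149161), SCN9A (166195185 to 166375987) and SCN7A (166403573 to 166494249). SCN3A, SCN2A and SCN7A were higher in control NPC than in hESC, with log2 changes of 2.43, 1.14 and 3.92. SCN1A and SCN9A, which lie 46.0 kb apart between SCN2A and SCN7A, were lower, with -3.12 and -3.63. In BafA1 NPC against control NPC the same 5 genes, from SCN3A to SCN7A, had log2 changes of -0.35, -0.88, -1.19, -0.80 and -0.56, of which the middle 3 passed.

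Calcium channels fell in 9 of 18 genes and rose in 3, next to 31.6% lower and 33.0% higher among all genes tested. CACNA1B, of presynaptic N-type channels, had 2.33, 2.33 and 2.27 CPM in control NPC, against 22.7, 21.5 and 22.9 CPM in hESC. CACNA1B was lower in every control NPC library than in any hESC library, with a log2 change of -3.27 (SE 0.14, adjusted p = 2.14e-09). CACNA1I had 0.25, 0.253 and 0.352 CPM in control NPC, against 11.8, 8.82 and 13.1 CPM in hESC. CACNA1I was lower in every control NPC library than in any hESC library, with a log2 change of -5.29 (SE 0.31, adjusted p = 2.65e-08). CACNA2D2, CACNA2D3 and CACNA2D1 fell by 2.04, 2.55 and 0.95 on the log2 scale, and the extracellular subunits summed to 3.41, 3.42 and 3.73 FPKM in control NPC, against 9.54, 10.3 and 10.8 FPKM in hESC. CACNB3, CACNA1A and CACNA1D were higher. CACNB3 averaged 36.8 ± 1.53 CPM in control NPC and 9.68 ± 1.34 CPM in hESC (log2 change 1.92 ± 0.12 SE, adjusted p = 3.77e-08). CACNA1A averaged 40.9 ± 1.09 CPM in control NPC and 21.6 ± 0.895 CPM in hESC (log2 change 0.92 ± 0.12 SE, adjusted p = 2.81e-05). CACNA1D averaged 7.43 ± 2.06 CPM in control NPC and 2.51 ± 0.352 CPM in hESC (log2 change 1.57 ± 0.26 SE, adjusted p = 0.000217). CACNA1H averaged 63.4 ± 6.1 CPM in control NPC and 66.5 ± 1.75 CPM in hESC (adjusted p = 0.551). With GC and length trends removed its log2 change was 0.24 (adjusted p = 0.0163), so that no direction is given for it.

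**Figure D4:**
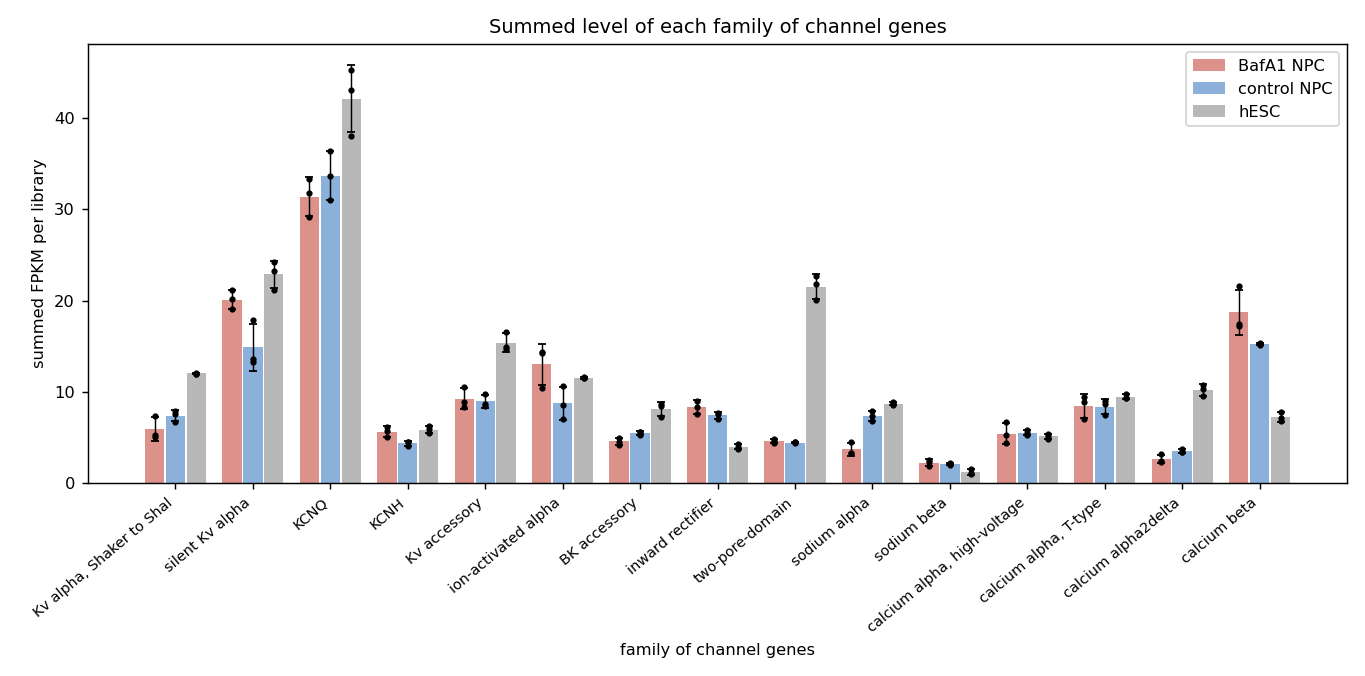
Summed FPKM of the genes of each of 15 families (horizontal axis) in BafA1 NPC, control NPC and hESC from left to right, as bars of the mean with SD (n = 3) and a point per library. Sodium alpha sums are 3.69, 7.35 and 8.71 FPKM, and two-pore-domain sums are 4.64, 4.43 and 21.6 FPKM in BafA1 NPC, control NPC and hESC.

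Median length and base composition, which the choice of genes did not use, differed between called genes of each direction. In the comparison of BafA1 NPC with control NPC, the genes that were higher had a median span of 28.6 kb and a transcript GC content of 58.5%, those that were lower 102 kb and 49.9%, and those not called 72.7 kb and 53.9%. Across the 107 tested channel genes with a GC value, Spearman's rho of GC content with the log2 change was 0.232, next to 0.214 over 17489 genes. These are correlations across genes that share libraries, and genes are not independent replicates. The libraries differed in this respect too, with rho of level and GC content of -0.020 to 0.048 in BafA1 NPC, -0.334 to -0.137 in control NPC and 0.098 to 0.176 in hESC. With GC and length trends removed, 16 channel genes were higher and 22 lower in BafA1 NPC against control NPC, where rho was 0.094. In control NPC against hESC 33 were higher and 47 lower. The 5 sodium alpha genes stayed lower under that removal, with log2 changes among them of -0.94 for SCN8A, -0.65 for SCN2A, -0.98 for SCN1A and -0.60 for SCN9A (adjusted p 4.29e-05 to 0.0428).

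**Figure D5:**
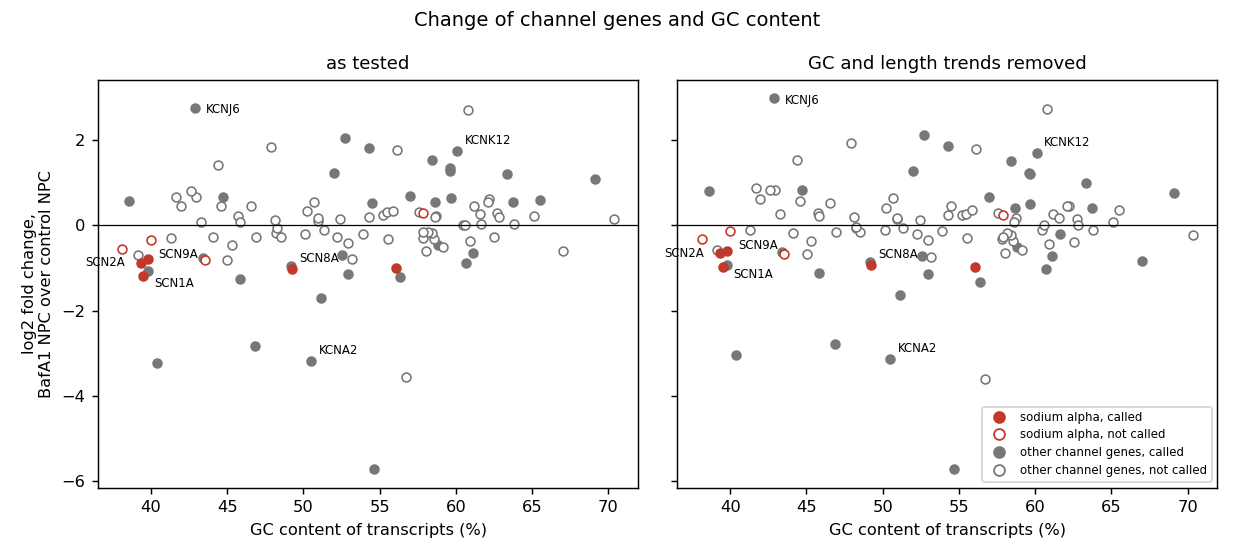
Log2 fold change of BafA1 NPC over control NPC (vertical axis) against transcript GC content in percent (horizontal axis) for the tested channel genes, as tested (left) and with GC and length trends removed (right), sodium alpha genes in red and genes at an adjusted p under 0.05 filled. The 5 called sodium alpha genes lie below 0 in both panels, between -1.19 and -0.80 at left and between -0.98 and -0.60 at right.

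A list of 52 further genes that bind, anchor or repress these channels or carry related currents was read the same way, 47 of them tested. In BafA1 NPC 13 were higher (27.7%) and 10 lower (21.3%) than in control NPC, next to 20.8% higher and 20.7% lower among all genes tested. REST, a repressor known to silence neuronal genes such as SCN2A outside neurons, had 52.6, 38.7 and 44.9 CPM in BafA1 NPC, against 69.2, 67.2 and 63.1 CPM in control NPC. REST was lower in every BafA1 NPC library than in any control NPC library, with a log2 change of -0.55 (SE 0.11, adjusted p = 0.00213). The pacemaker channel genes split, and HCN2 had 2.17, 2.05 and 1.99 CPM in BafA1 NPC, against 0.52, 0.591 and 0.422 CPM in control NPC. HCN2 was higher in every BafA1 NPC library than in any control NPC library, with a log2 change of 2.01 (SE 0.25, adjusted p = 9.52e-05). HCN4 had 0.983, 0.804 and 0.311 CPM in BafA1 NPC, against 3.5, 2.72 and 2.02 CPM in control NPC. HCN4 was lower in every BafA1 NPC library than in any control NPC library, with a log2 change of -2.0 (SE 0.32, adjusted p = 0.000508). HCN3 averaged 8.39 ± 0.86 CPM in BafA1 NPC and 14.7 ± 0.622 CPM in control NPC (log2 change -0.81 ± 0.11 SE, adjusted p = 0.00022). FGF11, a cytoplasmic partner of sodium channels, had 161, 143 and 178 CPM in BafA1 NPC, against 48.3, 63.8 and 70.1 CPM in control NPC. FGF11 was higher in every BafA1 NPC library than in any control NPC library, with a log2 change of 1.41 (SE 0.15, adjusted p = 4.61e-05). STAC, an adaptor of L-type calcium channels, had 10.3, 11.6 and 11.2 CPM in BafA1 NPC, against 3.83, 3.33 and 3.75 CPM in control NPC. STAC was higher in every BafA1 NPC library than in any control NPC library, with a log2 change of 1.6 (SE 0.13, adjusted p = 1.48e-05). ATP1B2 and CACNG7 were higher as well, by 1.11 and 0.80 on the log2 scale. In control NPC against hESC, 12 of the 47 were higher (25.5%) and 25 lower (53.2%), next to 33.0% higher and 31.6% lower among all genes tested. LGI1, a secreted protein that acts on Kv and synaptic complexes, had 67.3, 59.5 and 74.6 CPM in control NPC, against 0.261, 0.184 and 0.153 CPM in hESC. LGI1 was higher in every control NPC library than in any hESC library, with a log2 change of 8.36 (SE 0.21, adjusted p = 3.43e-11). CACNG4 averaged 36.7 ± 4.26 CPM in control NPC and 8.81 ± 0.255 CPM in hESC (log2 change 2.06 ± 0.10 SE, adjusted p = 7.81e-09). CACNG5 averaged 0.0711 ± 0.0154 CPM in control NPC and 9.63 ± 0.291 CPM in hESC (log2 change -7.03 ± 0.34 SE, adjusted p = 5.48e-09). Its level in control NPC is near that of 3 counts, so that the size of the fold is uncertain. HCN4 averaged 2.75 ± 0.74 CPM in control NPC and 22.3 ± 0.437 CPM in hESC (log2 change -3.02 ± 0.28 SE, adjusted p = 1.56e-06), and REST did not pass (adjusted p = 0.633).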

How the data were processed

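A stranded mRNA protocol was applied to total RNA, as the labels' protocols state. The submitters' processing notes name Trimmomatic, a read trimmer, and the build GRCh38. Aligner, counter and strand setting were not given in the sources used here. Whole-number counts per gene, a column per library, are the unit the authors deposited in 1 table. The authors also deposited FPKM per gene for each group. Columns were matched to samples by name, and 0 columns of other samples were present.

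Counts were tested with edgeR 4.0.16 in R 4.3.3: filterByExpr (20685 genes kept), TMM scaling, a quasi-likelihood fit with 1 term per group over all 9 libraries, two-sided, Benjamini-Hochberg over all genes tested, and a call at an adjusted p under 0.05. SE is of the log2 change. FPKM were used for levels between genes and, as log2(FPKM + 1) or log2(FPKM + 0.1), in limma 3.58.1. DESeq2 1.42.0, other scalings, no filter, GC and length correction, 2 groups alone and each library left out were alternatives. The fit was tested on simulated data. GC content and lengths are means over GENCODE transcripts, present for 84.5% of genes tested, and positions and promoter sequences are RefSeq's (GRCh38.p14), all 127 genes matched by ID. Replicate numbers did not pair the libraries: deviations of same-numbered libraries correlated at -0.055 to 0.088. A fold against a group without counts uses 3 counts per library.

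The channel genes, families, marker list and list of 52 related genes (51 in the table) were chosen with earlier results of these data known. The text names up to 12 rises and 12 falls per comparison among called genes without overlap and at least 1 CPM, the 3 highest by FPKM per family, a fixed list, and 5 related genes by smallest p. Other genes are named, chosen after their values were seen, where they complete a family's calls. Some genes that this rule names are not reported here.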

Additional observations from a re-analysis of the deposited data

How the results depend on the processing

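All but a few of the tested channel genes, and of the related genes that the rule names, were followed singly. They include genes that the text does not name. The alternatives covered both comparisons, 11 other settings and 6 fits without 1 library each. Of these values, 3612 kept their side of the threshold, 152 were no longer called, 59 became called and 2 changed sign with a call. A change of sign without a call in either fit counts among the 3612. In BafA1 NPC against control NPC, 8 of the 18 higher genes (CACNA1F, CACNB3, KCNG1, KCNH2, KCNJ6, KCNJ9, KCNK12 and KCNN1) and 11 of the 20 lower genes kept their call in every alternative, and in control NPC against hESC 25 of 30 and 41 of 50 did. The number of higher genes in BafA1 NPC was 11 with limma on log2(FPKM + 1), beside 18 lower, and 10 on log2(FPKM + 0.1), beside 20 lower. It was 13, beside 23 lower, with library size alone, which moved the median of all genes to -0.12 (0.14 in control NPC against hESC). The median change of channel genes in BafA1 NPC was -0.07 with library size alone, -0.05 on log2(FPKM + 0.1), -0.01 on log2(FPKM + 1) of filtered genes, -0.05 with GC and length trends removed and -0.04 with the replicate block as well, and ran from -0.01 to 0.07 without 1 library, so that it has no direction. In control NPC against hESC it was -0.33, -0.29, -0.08, -0.29 and -0.33 under the same alternatives, -0.05 on log2(FPKM + 1), -0.55 with DESeq2 and with 2 groups alone, and ran from -0.62 to -0.39 without 1 library. CACNA1H in control NPC against hESC was 0.24 with GC and length trends removed, with or without the block. With the block and the trends removed, SCN2A and SCN9A missed the threshold in BafA1 NPC (adjusted p = 0.0674 and 0.051). With the replicate block alone, 16 genes were higher and 21 lower in BafA1 NPC, and 30 higher and 46 lower in control NPC. The causes of these differences were not tested. Genes under about 0.1 CPM lie near 3 counts, so that differences among them were not detectable at this depth.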
